A study of Mus musculus with 16 samples.

Results

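The genes described here are 8 genes used as a signature of cerebellar Purkinje cells: *Pcp2*, *Calb1*, *Car8*, *Itpr1*, *Rora*, *Ppp1r17*, *Foxp2* and *Slc1a6*. They were picked by symbol from the gene table of the study, and all 8 were found among the 37583 genes of the count files. RNA came from snap-frozen brain tissue, cortex or cerebellum, of 4 wild-type mice and 4 mice with the A391T variant of *Slc39a8* (A393T in the mouse protein), a gene for a metal ion transporter. All mice were of strain C57BL/6J. The study's methods describe male animals, an age of 12 weeks for the wild-type mice, and frontal cortex and cerebellum dissected from the same animals, so each of the 16 libraries holds 1 region of 1 mouse. A391T is a point variant that every cell of the animal carries, and the *Slc39a8* mRNA level gives no check of the genotype labels. The tissue was not sorted. A lower level in such bulk RNA cannot be told apart between fewer cells of a type and less RNA in each cell.

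Purkinje cells are the large GABAergic neurons of the cerebellar cortex and its only output. Each receives glutamatergic input from many granule cell axons and from a climbing fibre, and metabotropic glutamate receptors at these synapses release calcium from internal stores through inositol trisphosphate (IP3). Several of the genes that mark these cells belong to this calcium pathway, and mutations of *Car8*, *Itpr1* or *Rora* cause ataxia in mice.

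The libraries held from 20813432 to 30497206 counts on genes. Cortex libraries and cerebellum libraries carried the markers of their regions: 11 of 12 granule cell markers were higher in wild-type cerebellum, and 10 of 10 cortical neuron markers were higher in wild-type cortex. 2 features of the libraries touch the results. For 4 of the 8 mice, wild-type replicates 1 and 2 and A391T replicates 3 and 4, the deposited RPKM table gives the opposite genotype to the count files. The labels of the count files are used here, and genotype values under the other names are given where they differ in direction. The library of A391T cerebellum replicate 1 stood apart from its group. CPM here are counts scaled to the library total times its TMM normalization factor. Of 10373 genes at a mean of at least 10 CPM, 264 lay more than 1 log2 unit from the mean of the other 3 libraries in that library. In each of the other 15 libraries 2 to 71 genes did.

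Promoter sequences show which letters lie just upstream of these genes. The RefSeq promoter table, on build GRCm38.p6, has windows for 3 of the 8 genes, *Pcp2*, *Rora* and *Slc1a6*. The 250 bases before an annotated start of each are shown, read 5′ to 3′ on the strand of the gene. Capitals mark AGGTCA or its reverse TGACCT, the core half-site bound by the nuclear receptor that *Rora* encodes, since *Rora* is itself among the genes described.
Pcp2, chr8:3625548-3625797, minus strand: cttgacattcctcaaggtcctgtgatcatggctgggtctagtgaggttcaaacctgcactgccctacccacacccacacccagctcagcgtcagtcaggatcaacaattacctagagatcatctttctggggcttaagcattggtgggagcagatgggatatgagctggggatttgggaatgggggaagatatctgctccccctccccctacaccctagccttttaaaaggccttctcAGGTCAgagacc
Rora, chr9:68653536-68653785, plus strand: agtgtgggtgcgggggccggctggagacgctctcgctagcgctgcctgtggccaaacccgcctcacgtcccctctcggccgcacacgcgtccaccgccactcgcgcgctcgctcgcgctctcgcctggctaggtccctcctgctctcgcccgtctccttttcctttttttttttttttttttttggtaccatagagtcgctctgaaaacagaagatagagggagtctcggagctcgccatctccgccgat
Slc1a6, chr10:78780246-78780495, plus strand: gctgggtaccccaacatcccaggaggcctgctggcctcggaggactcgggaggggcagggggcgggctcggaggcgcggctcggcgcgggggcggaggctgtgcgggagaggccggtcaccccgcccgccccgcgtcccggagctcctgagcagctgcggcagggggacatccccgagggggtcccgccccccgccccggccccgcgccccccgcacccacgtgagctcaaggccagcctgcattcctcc
The *Pcp2* window held the half-site 12 bases before the start, and 3 of its 4 annotated windows held one, 2 of them the same site. The windows of *Rora* and *Slc1a6* held none. Of all 32851 promoter windows in the table, each 300 bases long, 16.26% held this half-site on either strand. The forkhead core TGTTTA, searched on both strands because *Foxp2* encodes a forkhead protein, was in none of the 6 windows of these genes and in 13.44% of all windows. An E-box, CANNTG, lay 100 bases before the start in the *Pcp2* window and 99 and 32 bases before it in the *Slc1a6* window, and in 72.31% of all windows. A match of letters is not evidence of binding.

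Levels differed greatly among the 8 genes. They are given in TPM, a per-length scale with 1 common total for all libraries, on which genes can be compared with each other. In wild-type cerebellum the order of mean levels was *Car8*, *Itpr1*, *Pcp2*, *Calb1*, *Ppp1r17*, *Slc1a6*, *Rora* and *Foxp2*. *Car8* at 1531 ± 56.2 TPM (SD, n = 4) and *Itpr1* at 1472 ± 165 TPM (SD, n = 4) ranked 40 and 45 among all genes in mean level. These neighbours did not differ beyond their spread, with *Car8* above *Itpr1* in 2 of 4 mice. *Pcp2* at 804 ± 54.7 TPM (SD, n = 4) was above *Calb1* at 738 ± 33.0 TPM (SD, n = 4) in 4 of 4 mice, by a ratio of 1.05 to 1.14. This order rests on a length of 966 bases for *Pcp2*. Divided by all 1828 bases of its annotated exons *Pcp2* would be at 425 TPM, below *Calb1*, *Ppp1r17* and *Slc1a6*. Of these bases 971 are shared with no other gene, and reads that fall on more than 1 gene were set aside as ambiguous in the counts, so the longer length gives a lower level by construction. *Ppp1r17* at 453 ± 21.1 TPM (SD, n = 4) and *Slc1a6* at 444.8 ± 10.8 TPM (SD, n = 4) could not be ordered, as *Ppp1r17* was higher in 2 of 4 mice. *Rora* followed at 84.6 ± 3.59 TPM (SD, n = 4). *Foxp2* was the lowest at 3.90 ± 1.43 TPM (SD, n = 4), at rank 12794 of all genes. Together the 8 genes made up 0.523% to 0.570% of all TPM in wild-type cerebellum and 0.0451% to 0.0592% in wild-type cortex.

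In wild-type cortex the order was different. *Itpr1* was highest at 360 ± 77.7 TPM (SD, n = 4), followed by *Calb1* at 109 ± 12.1 TPM (SD, n = 4). *Rora* at 18.5 ± 2.56 TPM, *Slc1a6* at 17.2 ± 2.37 TPM and *Car8* at 16.0 ± 0.895 TPM (SD, n = 4 each) overlapped in range. *Foxp2* came next at 7.23 ± 0.544 TPM (SD, n = 4). *Ppp1r17* at 1.79 ± 0.685 TPM and *Pcp2* at 1.08 ± 0.428 TPM (SD, n = 4 each) were the lowest and also overlapped. The cortex levels of *Pcp2* rested on 3 to 12 counts per library, and those of *Ppp1r17* on 11 to 36.

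**Figure D1:**
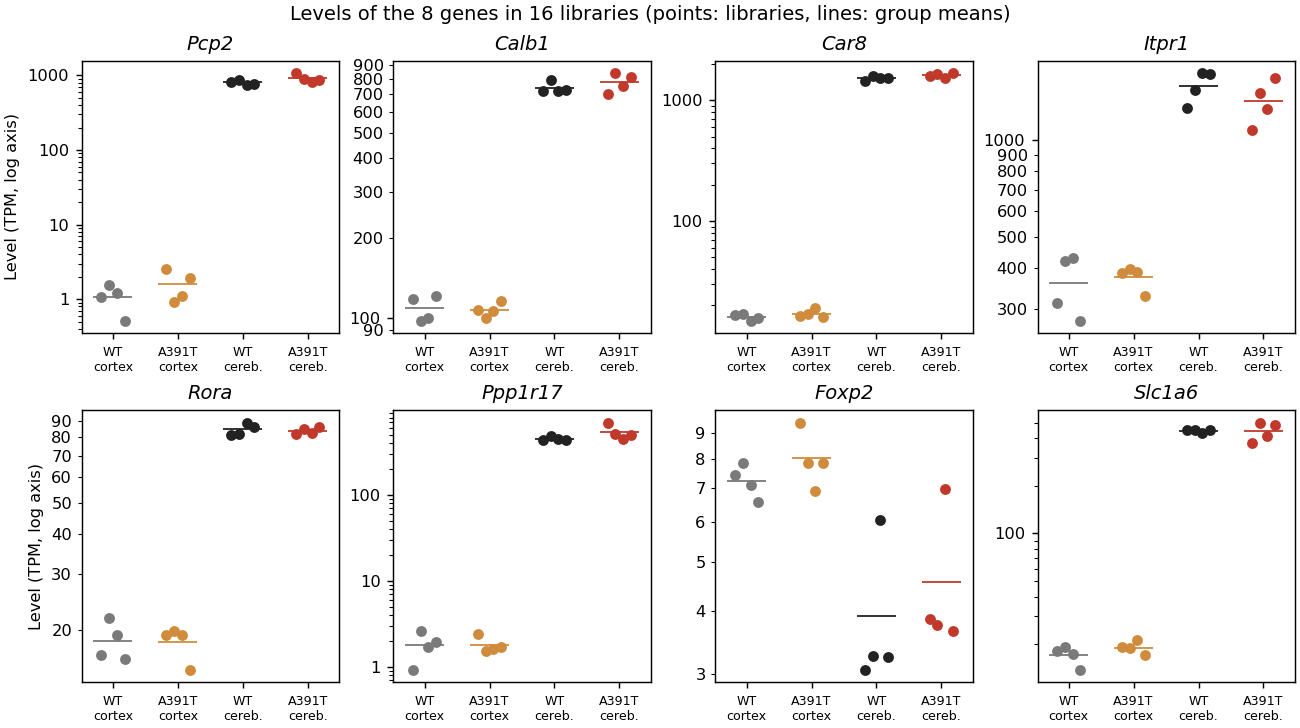
Level of each of the 8 genes in TPM on a log axis, with 1 point per library, 4 libraries per group, and a line at each group mean; the vertical range differs between panels. For 7 genes every cerebellum library lies above every cortex library, and for *Foxp2* 3 of the 4 cerebellum libraries of each genotype lie well below cortex, with replicate 3 at 6.04 TPM in wild-type and, within the cortex range, at 6.96 TPM in A391T mice.

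The first comparison asked how the RNA of cerebellum differs from that of cortex within each genotype. Calls needed both a 2-fold difference and an adjusted p-value under 0.05. In wild-type mice 8 of 8 genes were called, 7 higher in cerebellum and 1, *Foxp2*, lower. For comparison, 24.7% of the 16040 genes tested were called, 10.5% as higher and 14.2% as lower. The median log2 fold change of the 8 genes was 3.57, and that of all genes tested was 0.02. The choice of genes known to mark Purkinje cells bears on this count, so it says little about the genes beyond the sizes and the exception. P-values are from edgeR (quasi-likelihood), adjusted by Benjamini-Hochberg across the genes tested.

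Among the genes of calcium handling, *Car8* encodes a carbonic anhydrase-related protein that binds the IP3 receptor and lowers its affinity for IP3. Its levels in wild-type mice were 16.5, 17.0, 15.0 and 15.6 TPM in cortex and 1454, 1589, 1541 and 1538 TPM in cerebellum (replicates 1 to 4). The groups did not overlap, and the log2 fold change was 6.43 (SE 0.08, adjusted p = 1.82e-12). By p-value, *Car8* ranked 2 among all genes tested.

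*Itpr1* encodes the IP3 receptor that releases calcium from the endoplasmic reticulum. It was at 312, 421, 430 and 276 TPM in wild-type cortex and 1255, 1432, 1606 and 1596 TPM in cerebellum. The groups did not overlap, and the log2 fold change was 1.88 (SE 0.14, adjusted p = 3.09e-07), the smallest of the 7 higher genes. *Itpr1* is a long transcript, and its order among the wild-type cortex libraries was close to that of long transcripts in general. The median deviation of genes over 6000 bases from their group mean was 0.10 and 0.07 log2 units in replicates 2 and 3, where *Itpr1* was high, and -0.02 and -0.14 in replicates 1 and 4, where it was low. The part of transcript length in the spread of *Itpr1* was not tested.

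*Calb1* encodes calbindin, a cytosolic calcium buffer. Wild-type mice had 118, 98.1, 100 and 121 TPM in cortex and 720, 787, 719 and 726 TPM in cerebellum. All cerebellum libraries were above all cortex libraries, with a log2 fold change of 2.60 (SE 0.09, adjusted p = 9.54e-10).

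The 2 genes of signalling had the largest fold changes. *Pcp2* encodes a Purkinje cell protein with a GoLoco motif that binds inhibitory G protein subunits. Its counts in wild-type mice were 7, 12, 7 and 3 in cortex, or 1.06, 1.55, 1.195 and 0.518 TPM, and its levels in cerebellum were 820, 875, 755 and 768 TPM. The log2 fold change was 9.32 (SE 0.15, adjusted p = 7.14e-12), a fold of 641 that rests on few cortex counts. An antisense gene, *2900053A13Rik*, covers 46.9% of the exon bases of *Pcp2* in the annotation. The counts took no account of strand, so reads of the pair in the shared bases cannot be told apart. *2900053A13Rik* had 339 to 440 counts in wild-type cortex and 301 to 332 in wild-type cerebellum. In A391T mice it had 346 to 484 in cortex and 292 to 505 in cerebellum. Reads on bases of both genes were set aside, so these counts do not bear on the shared bases. The part of the antisense gene in the *Pcp2* values was not tested.

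*Ppp1r17* encodes a substrate of cyclic GMP-dependent protein kinase that, once phosphorylated, inhibits protein phosphatases. Its levels in wild-type mice were 0.927, 2.59, 1.71 and 1.92 TPM in cortex and 443, 484, 451 and 436 TPM in cerebellum. The log2 fold change was 7.81 (SE 0.16, adjusted p = 1.65e-11), at rank 28 of all genes tested by fold change, with *Pcp2* at rank 14.

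*Slc1a6* encodes EAAT4, the glutamate transporter of Purkinje cell dendrites and spines. Cortex of wild-type mice had 18.2, 19.4, 17.5 and 13.9 TPM, and their cerebellum had 449, 451, 429 and 451 TPM. The cerebellum values lay within a narrow range far above cortex, and the log2 fold change was 4.53 (SE 0.09, adjusted p = 1.78e-11).

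Of the transcription factors, *Rora* encodes the nuclear receptor that is lost in the staggerer mouse. Its levels in wild-type mice were 16.7, 21.7, 19.3 and 16.2 TPM in cortex and 81.3, 81.9, 88.9 and 86.2 TPM in cerebellum. The log2 fold change was 2.04 (SE 0.08, adjusted p = 2.77e-09), with no overlap between regions.

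*Foxp2* encodes a forkhead protein that is expressed in Purkinje cells and also in deep-layer cortical and striatal neurons. Its levels in wild-type mice were 7.43, 7.84, 7.10 and 6.56 TPM in cortex and 3.06, 3.26, 6.04 and 3.25 TPM in cerebellum. All cerebellum libraries were below all cortex libraries, but replicate 3 was close to the lowest cortex value. The log2 fold change was -1.05 (SE 0.19, adjusted p = 0.000434), with a 95% interval of -1.46 to -0.63 that includes changes under 2-fold. The 2-fold criterion was missed with library totals as the scaling (-0.92), under the names of the RPKM table (-0.66) and with only the mice whose names agree (-0.72). The call as a 2-fold change was lost without wild-type cerebellum replicate 1, 2 or 4 (log2 fold changes of -0.94, -0.96 and -0.95) and was -1.34 without replicate 3. As a marker of Purkinje cells in unsorted tissue of these 2 regions, *Foxp2* differed in sign from the other 7 genes. The 10 striatum markers summed to 1121.5 to 1460.9 TPM in wild-type cortex and to 577 to 645 TPM in wild-type cerebellum. Of these 10, 8 were called lower in cerebellum, against 14.2% of all genes tested. The part of striatal tissue in the region difference of *Foxp2* was not tested.

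In A391T mice the same 7 genes were called higher in cerebellum, and *Foxp2* was not called. Of the 16005 genes tested in these mice, 24.7% were called, 9.8% as higher and 14.9% as lower. The log2 fold changes were 9.02 for *Pcp2* (SE 0.23), 8.14 for *Ppp1r17* (SE 0.24), 6.47 for *Car8* (SE 0.09) and 4.42 for *Slc1a6* (SE 0.10). *Calb1* had a log2 fold change of 2.75 (SE 0.07), *Rora* of 2.09 (SE 0.09) and *Itpr1* of 1.71 (SE 0.10), and adjusted p-values of these 7 genes were at most 2.28e-07. *Foxp2* was at 9.43, 7.86, 6.90 and 7.84 TPM in A391T cortex and at 3.86, 3.75, 6.96 and 3.65 TPM in A391T cerebellum. Replicate 3 overlapped between the regions, being the highest in cerebellum and the lowest in cortex. Its log2 fold change of -0.92 (SE 0.20, adjusted p = 0.00265) passed the p-value criterion, as 31.3% of all genes tested did in this direction, but not the 2-fold criterion. Without A391T cerebellum replicate 3 it was -1.17 and called, as it was under the names of the RPKM table (-1.32) and with only the mice whose names agree (-1.24).

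**Figure D2:**
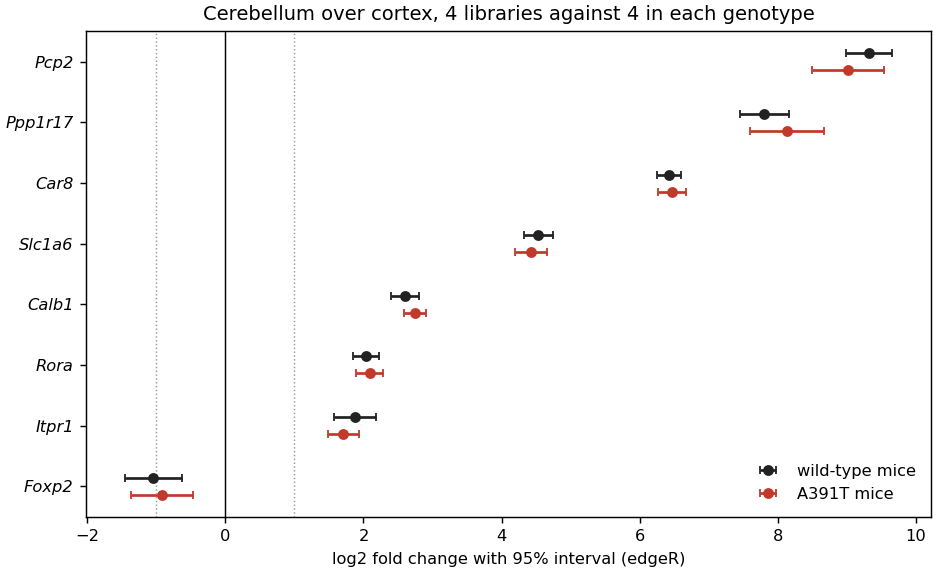
Log2 fold change of cerebellum over cortex for the 8 genes with 95% intervals from edgeR, wild-type mice in black and A391T mice in red, with dotted lines at a 2-fold change in each direction. The 7 genes above 0 lie beyond the line in both genotypes, from 1.71 to 9.32, and the intervals of *Foxp2* cross the line at -1.

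The high *Foxp2* values of cerebellum replicate 3 came with high values of other genes, chosen after their values were seen. *Slc17a6*, the vesicular glutamate transporter of deep cerebellar nuclei and brainstem neurons, was at 26.5, 15.0, 47.9 and 14.5 TPM in wild-type cerebellum and at 19.0, 14.5, 70.7 and 22.5 TPM in A391T cerebellum. In both genotypes replicate 3 was the highest for *Slc17a6* and for *Foxp2*. Among the other 6 libraries the genes did not rank alike, as wild-type replicate 1 and A391T replicate 4 had the second highest *Slc17a6* and the lowest *Foxp2* of their groups. *Slc17a6* was one of 10 markers listed for deep nuclei and brainstem. Of these 10 genes, 2 were highest in wild-type cerebellum replicate 3 and 5 in A391T cerebellum replicate 3. Their summed level ranged from 120 to 173 TPM in wild-type cerebellum, with 160 in replicate 3, and from 122 to 234 TPM in A391T cerebellum, with 234 in replicate 3. The markers *Slc6a4*, *Chat*, *Hoxb3* and *Hoxb5* were at 0 in at least 1 cerebellum library of each genotype. Of 10 striatum markers, 6 were highest in replicate 3 in wild-type cerebellum and 6 in A391T cerebellum. The dopamine receptor gene *Drd2* was at 10.7 TPM in wild-type replicate 3, against 1.62 to 2.47 TPM in the other 3 libraries, and at 10.3 TPM in A391T replicate 3, against 1.13 to 2.74 TPM. The neuropeptide gene *Tac1* was at 12.2 TPM in wild-type replicate 3, against 3.39 to 8.35 TPM, and at 23.8 TPM in A391T replicate 3, against 1.46 to 2.37 TPM. The summed striatum markers were at 601 TPM in wild-type replicate 3, within a range of 577 to 645 TPM, and at 563 TPM in A391T replicate 3, within 559 to 660 TPM. The 10 cortical neuron markers summed to 70.4 TPM in wild-type replicate 3, against 53.7 to 57.7 TPM in the other 3 libraries, and to 65.9 TPM in A391T replicate 3, against 43.4 to 63.8 TPM, and 4 and 3 of them were highest there. Among them, *Rasgrf2* was at 6.87 and 8.00 TPM and *Bcl11b*, a factor of deep-layer neurons, at 1.85 and 2.33 TPM in these libraries, against at most 3.66 and 0.802 TPM in the other 6. In A391T replicate 3, 7 of 8 oligodendrocyte markers and 5 of 7 microglia markers were also highest, against 0 of either list in wild-type replicate 3. Of the 10373 genes at a mean of at least 10 CPM, 35.8% were highest in wild-type replicate 3 and 19.1% in A391T replicate 3. In A391T cortex replicate 3, where *Foxp2* was lowest, 10 striatum markers summed to 445.3 TPM, against 1107 to 1590 TPM in the other 3 libraries of the group. The part of dissection or of other cell types in the *Foxp2* values was not tested.

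**Figure D3:**
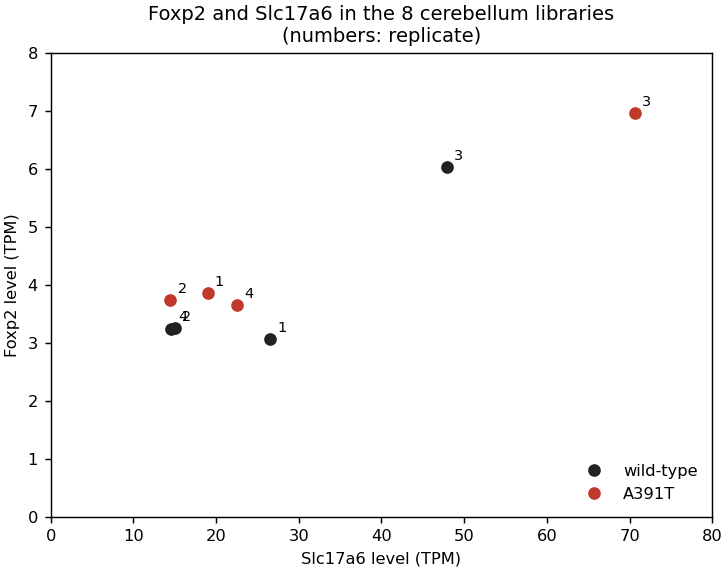
*Foxp2* against *Slc17a6*, both in TPM, in the 8 cerebellum libraries, numbered by replicate, with wild-type in black and A391T in red. The 2 libraries of replicate 3 lie apart at 6.04 and 6.96 TPM of *Foxp2*, and the other 6 lie between 3.06 and 3.86 TPM.

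Family members of the 8 genes showed both directions in wild-type mice. Of 20 related genes, 19 were tested, 7 were called higher and 6 lower in cerebellum, and their median log2 fold change was 0.23. Of all genes tested, 10.5% were called higher and 14.2% lower. *Itpr3*, another IP3 receptor, was higher (log2 fold change 2.43, SE 0.12), and the value for *Itpr2* was -0.07 (SE 0.09). *Itpr1* exceeded the sum of both by a ratio of 35.3 ± 3.86 in wild-type cortex and 56.6 ± 4.93 in wild-type cerebellum (SD, n = 4 each, on the TPM scale). *Rorb* was lower in cerebellum (log2 fold change -2.38, SE 0.09). In wild-type mice *Rora* exceeded *Rorb* by 1.62 ± 0.281 times in cortex (SD, n = 4) and by 34.6 ± 3.14 times in cerebellum (SD, n = 4). *Foxp1* was lower by more than *Foxp2* (log2 fold change -2.45, SE 0.08), and *Foxp4* had 0.85 (SE 0.06), under a 2-fold change.

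Of the glutamate transporters, *Slc1a3*, the glial transporter abundant in Bergmann glia, was higher in cerebellum (log2 fold change 1.13, SE 0.05). *Slc1a2*, the main astrocyte transporter of the forebrain, was lower (-2.06, SE 0.08), as was the neuronal *Slc1a1* (-1.72, SE 0.06). *Slc1a7* was not tested, with 2 to 7 counts per wild-type cortex library and 0 in wild-type cerebellum. *Slc1a6* at 444.8 TPM was below *Slc1a3* at 547 ± 11.7 TPM (SD, n = 4) in wild-type cerebellum, with ranges that did not overlap. The calcium-binding proteins *Calb2* (log2 fold change 4.91, SE 0.17) and *Pvalb* (3.39, SE 0.10) were higher. *Calb2*, a marker of granule and unipolar brush cells in the cerebellum, reached 1192 ± 110 TPM in wild-type cerebellum (SD, n = 4), above *Calb1*. *Car4* was higher (1.90, SE 0.09) and *Car11*, like *Car8* without catalytic activity, lower (-1.23, SE 0.06). *Car2* at 0.01 (SE 0.11) and *Car10* at 0.23 (SE 0.10) were not called. Of the genes with GoLoco motifs, *Gpsm1* was higher (1.66, SE 0.12), *Gpsm2* lower (-1.82, SE 0.13), and *Gpsm3* not called (-0.40, SE 0.21). *Pcp4*, which shares only its name with *Pcp2* and encodes a calmodulin-binding peptide, had 0.75 (SE 0.07) and was not called.

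A list of 25 other Purkinje cell genes was counted in the same way. Of these, 23 were tested, and 20 were called higher and 0 lower in wild-type cerebellum. Their median log2 fold change was 2.70. Of all genes tested, 10.5% were called higher and 14.2% lower. As for the 8 genes, the choice of the list bears on this count, so it is no independent view. The transcriptional regulators *Skor2*, *Lhx1* and *Lhx5* had the largest changes. *Skor2* had 0 counts in the 4 wild-type cortex libraries and 478 to 561 in the cerebellum libraries, at least 171-fold higher when 3 counts per cortex library are taken as the limit that a count of 0 allows. *Lhx1* had a log2 fold change of 8.93 (SE 0.25) and *Lhx5* of 7.73 (SE 0.32), on 0 to 10 counts per cortex library. *Arhgef33* followed with 7.10 (SE 0.11) and *Homer3*, a scaffold that links metabotropic glutamate receptors to IP3 receptors, with 5.51 (SE 0.08). The 3 genes not called were *Pcp4*, *Gad1*, the GABA-synthesizing enzyme (0.66, SE 0.07), and *Kcnma1*, a calcium-activated potassium channel (0.24, SE 0.28). In A391T mice 20 of the 23 were called higher and 0 lower, against 9.8% and 14.9% of all genes tested.

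Genes of the pathway around *Itpr1* and *Car8* went in both directions. Of 26 genes of IP3 and calcium signalling, 25 were tested. In wild-type cerebellum 10 were called higher and 4 lower, against 10.5% and 14.2% of all genes tested. The median log2 fold change of the 25 was 0.35. The called genes included counterparts in opposite directions. *Grm5*, a metabotropic glutamate receptor, was lower (log2 fold change -4.06, SE 0.28). Of the Homer scaffolds, *Homer3* was higher and *Homer1* lower (-2.78, SE 0.11). Of the phospholipases C, *Plcb4* (2.01, SE 0.10) and *Plcb3* (2.01, SE 0.07) were higher and *Plcb1* lower (-1.87, SE 0.15). *Atp2a3*, a calcium pump of the endoplasmic reticulum, was higher (4.73, SE 0.10), as was *Inpp5a*, which degrades IP3 (2.99, SE 0.07). *Itpka*, an IP3 kinase, was lower (-1.63, SE 0.09). In A391T mice 10 were called higher and 4 lower, against 9.8% and 14.9% of all genes tested.

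Around *Ppp1r17*, 12 genes of cyclic GMP and phosphatase signalling were tested. In wild-type cerebellum 3 were called higher and 4 lower, against 10.5% and 14.2% of all genes tested. The median log2 fold change of the 12 was -0.46. *Prkg1*, the kinase that phosphorylates the *Ppp1r17* product, was higher (1.92, SE 0.18), as were the cyclic GMP phosphodiesterase *Pde5a* (2.83, SE 0.13) and the nitric oxide synthase *Nos1* (1.93, SE 0.11). *Prkg2*, the other cyclic GMP-dependent kinase, was lower (-3.16, SE 0.21). The guanylate cyclase subunits *Gucy1a3* (-1.15, SE 0.05) and *Gucy1b3* (-1.31, SE 0.05) and the phosphatase inhibitor *Ppp1r1a* (-2.86, SE 0.08) were lower. In A391T mice 3 were called higher and 5 lower, against 9.8% and 14.9% of all genes tested.

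The genes with the most similar profiles were named by the root mean square (RMS) difference of log2 CPM across the 16 libraries, each gene centred on its own mean, among 14414 genes. Since the region difference dominates this measure, likeness means mainly a similar fold change between regions. The closest match of *Slc1a6* was *Chn2*, a Rac GTPase-activating protein (RMS difference 0.10), followed by *Atp2a3* (0.19). *Itpr1* lay closest to the potassium channel *Kcnc1* (0.09) and to *Ttll5* (0.09), and *Rora* to *Cerk* (0.09) and *Fads6* (0.09). *Calb1* lay closest to *Btg1* (0.09) and *Pkib* (0.12), and *Car8* to *Ltbp2* (0.20) and *Lbx1* (0.21). *Ppp1r17* lay closest to *En2*, a homeobox gene of the hindbrain (0.31), and *Slc5a1* (0.32). *Pcp2* had the least close matches, *Dao*, a D-amino acid oxidase (0.35), and the glycine transporter *Slc6a5* (0.53). *Foxp2* lay closest to *Vwc2* (0.22) and *Rhbdl3* (0.23). The 8 genes themselves were left out as candidates, though the 14414 genes include them, so their likeness to each other was not examined.

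The second comparison asked whether the A391T variant goes with other levels of these genes in the same region. In the cerebellum 0 of 8 genes passed the threshold, an adjusted p-value below 0.05, and 0 of 8 had an unadjusted p-value under 0.05. For comparison, 0% of the 15668 genes tested were called by edgeR, with 1340 at an unadjusted p-value under 0.05, and DESeq2 called 37 genes. *Ppp1r17* had the largest difference of the 8. Its levels in A391T cerebellum were 699, 514, 455 and 498 TPM, and those in wild-type cerebellum were 443, 484, 451 and 436 TPM. Replicate 1 was far above the others, and the groups overlapped. The log2 fold change of A391T over wild-type was 0.32, with a 95% interval of -0.02 to 0.66 (adjusted p = 0.532), and 0.12 without A391T cerebellum replicate 1. *Pcp2* was at 1063, 896, 808 and 880 TPM in A391T cerebellum, with replicate 1 again the highest. Its log2 fold change was 0.24 with a 95% interval of -0.02 to 0.50 (adjusted p = 0.532), and 0.11 without replicate 1.

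The other 6 genes had smaller differences or wider intervals in the cerebellum. The log2 fold change was 0.13 for *Car8* (95% interval -0.02 to 0.28) and 0.12 for *Calb1* (-0.03 to 0.27). It was 0.04 for *Rora* (-0.08 to 0.17), 0.04 for *Slc1a6* (-0.14 to 0.21) and -0.11 for *Itpr1* (-0.34 to 0.13). With each library left out, the value of *Itpr1* ran from -0.18 to -0.055. *Foxp2* had 0.28 with the widest interval, -0.32 to 0.87, and under the names of the RPKM table its sign turned to -0.45. It was 0.0090 without A391T cerebellum replicate 3 and 0.55 without wild-type cerebellum replicate 3. The adjusted p-values of these 6 genes were from 0.532 to 0.853. The intervals of *Rora*, *Slc1a6*, *Calb1* and *Car8* lie within 0.3 log2 units of 0, and those of *Pcp2*, *Ppp1r17*, *Foxp2* and *Itpr1* reach beyond.

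In the cortex 7 of the 8 genes were tested and 0 were called, and 0 had an unadjusted p-value under 0.05. Of the 15815 genes tested, 0.0126% were called by edgeR, and DESeq2 called 14 genes. The log2 fold changes of A391T over wild-type were from -0.05 for *Calb1* (95% interval -0.25 to 0.15) to 0.13 for *Foxp2* (-0.08 to 0.33). With each library left out, the value of *Foxp2* ran from 0.033 to 0.20. *Ppp1r17* had -0.03 with a wide interval, -0.66 to 0.60, at 11 to 36 counts per library. *Rora* had -0.03 (95% interval -0.25 to 0.19), and both genes changed sign under the names of the RPKM table, to 0.10 and 0.14. *Pcp2* was too low in cortex for the test, with counts of 16, 6, 7 and 15 in A391T mice and 7, 12, 7 and 3 in wild-type mice. Without the filter on low counts its log2 fold change was 0.53 (SE 0.40), not distinguishable from 0 at this depth.

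The third comparison asked whether the difference between regions depends on genotype. The interaction of region and genotype was called for 0 of 8 genes, and 0 had an unadjusted p-value under 0.05. Of the 16589 genes tested, 0% were called by edgeR, with 805 at an unadjusted p-value under 0.05, and DESeq2 called 1 gene. The interaction, the log2 fold change between regions in A391T minus that in wild-type mice, was 0.34 for *Ppp1r17* (SE 0.36) and -0.29 for *Pcp2* (SE 0.42). With 1 library left out, the value of *Ppp1r17* ran from 0.077, without wild-type cortex replicate 2, to 0.56, without wild-type cortex replicate 1, and was 0.15 without A391T cerebellum replicate 1. That of *Pcp2* ran from -0.54, without wild-type cortex replicate 2, to -0.025, without A391T cortex replicate 1. For the other 6 genes it lay between -0.16 for *Itpr1* and 0.16 for *Calb1*, and the adjusted p-values were from 0.769 to 0.903. With each library left out, the interaction of *Itpr1* ran from -0.25 to -0.057 and that of *Calb1* from 0.10 to 0.21. *Foxp2*, called in one genotype and not in the other, had an interaction of 0.14 (SE 0.29, adjusted p = 0.903), so its region difference was not shown to depend on genotype. Under the names of the RPKM table the interaction of *Foxp2* turned to -0.64 and that of *Rora* from 0.06 to -0.15, and with only the mice whose names agree they were -0.50 and -0.08, none of them called.

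**Figure D4:**
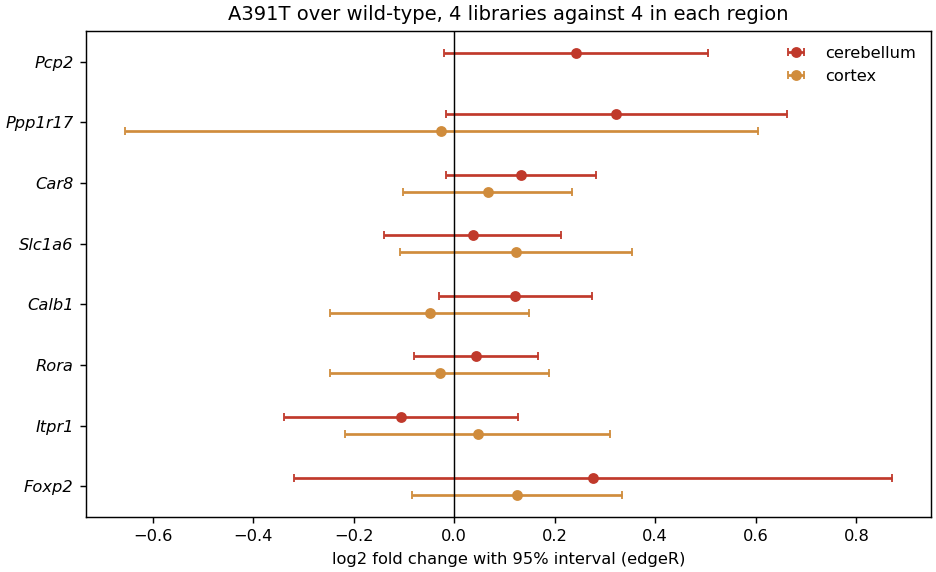
Log2 fold change of A391T over wild-type for the 8 genes with 95% intervals from edgeR, cerebellum in red and cortex in orange; *Pcp2* has no cortex value, as it did not pass the filter on low counts. Each interval includes 0, and the values run from -0.11 to 0.32.

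The cerebellum library of A391T replicate 1 differed from the other 7 cerebellum libraries in several Purkinje cell genes. Of the 8 genes, 2 were above all 7 others, *Pcp2* and *Ppp1r17*, and 3 were below, *Itpr1*, *Slc1a6* and *Calb1*. Most genes lay outside the range of the other 7 on the TPM scale: of the 10373 genes at a mean of at least 10 CPM, 27.2% were above and 51.2% below, so these counts do not set the 8 genes apart. *Ppp1r17* was 1.49 times the mean of the other 7, *Pcp2* 1.28 times, *Slc1a6* 0.818 times and *Itpr1* 0.745 times. Of the 23 other Purkinje cell genes, 7 were above all 7 libraries and 10 below. *Pcp4* was at 212 TPM in this library, against 825 to 1070 TPM in the other 7 (0.222 times their mean). *Pvalb* was at 4418 TPM, against 1545 to 1871 TPM in the other 7 (2.57 times). *Plcb4* was at 79.0 TPM, against 144 to 165 TPM, and *Kcnma1* at 19.8 TPM, against 42.8 to 67.6 TPM.

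Markers of other cells also lay outside the range of the other 7 libraries here. Of the granule cell markers 9 of 12 were below and 1 above all 7 others, and of those of astrocytes and Bergmann glia 6 of 9 were below and 2 above, against 51.2% and 27.2% of all genes. The other cell and tissue marker lists had from 1 of 10 (deep nuclei and brainstem) to 4 of 6 genes (endothelium) below and from 0 of 9 (choroid plexus) to 2 of 5 genes (blood) above. With 5 to 12 genes a list and no test of a difference, no list is set apart. *Aldoc*, which marks stripes of Purkinje cells as well as astrocytes, was at 1746 TPM, against 2628 to 3093 TPM. Of the molecular layer interneuron markers, *Pvalb* and *Gad1* were above all 7 others, *Gad1* at 376 TPM against 290 to 324 TPM. *Slc32a1*, the vesicular GABA transporter, at 184 TPM against 225 to 254 TPM, *Kit* at 149 TPM against 156 to 187 TPM, *Sorcs3* and *Pax2* were below all 7. Transcripts under 1500 bases had a median deviation of 0.10 log2 units from the group mean, and those over 6000 bases of -0.10. The part of transcript length, dissection or cell composition in these values was not tested. The cortex library of the same mouse did not stand apart, with 3 genes more than 1 log2 unit from the mean of the other 3 libraries.

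**Figure D5:**
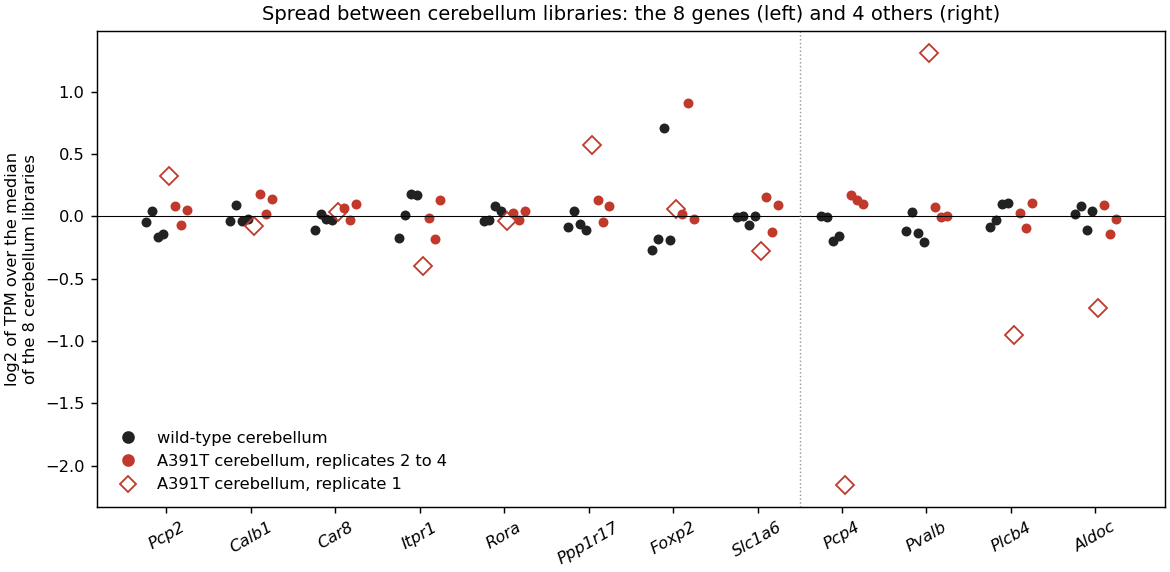
Log2 of the TPM over the median of the 8 cerebellum libraries, for the 8 genes on the left and *Pcp4*, *Pvalb*, *Plcb4* and *Aldoc* on the right; black points are wild-type libraries, red points A391T libraries, and the open diamond is A391T replicate 1. The diamond is the lowest for *Pcp4*, *Plcb4*, *Aldoc*, *Itpr1*, *Slc1a6* and *Calb1* and the highest for *Pvalb*, *Ppp1r17* and *Pcp2*.

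The genes lie on 5 chromosomes of the build of the files, NCBIM37 (mm9), in the GENCODE M1 annotation. *Calb1* (ENSMUSG00000028222) is on chromosome 4 from 15808411 to 15835211 and *Car8* (ENSMUSG00000041261) on chromosome 4 from 8070514 to 8166188. *Foxp2* (ENSMUSG00000029563) is on chromosome 6 from 14851349 to 15391977, *Ppp1r17* (ENSMUSG00000002930) from 55967509 to 55982682 and *Itpr1* (ENSMUSG00000030102) from 108163112 to 108501103 of the same chromosome. *Pcp2* (ENSMUSG00000004630) is on chromosome 8 from 3623371 to 3625545, *Rora* (ENSMUSG00000032238) on chromosome 9 from 68501593 to 69236053 and *Slc1a6* (ENSMUSG00000005357) on chromosome 10 from 78243241 to 78277570. *Pcp2* and *Car8* lie on the minus strand and the others on the plus strand. Besides *Pcp2*, 1 of the genes shares exon bases with another: *Gm15511*, on the other strand, covers 0.626% of those of *Rora*.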

How the data were processed

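RNA of cortex and cerebellum from 4 wild-type and 4 A391T mice was measured in 16 polyA-selected, directional libraries. The authors aligned the reads to mm9 with STAR. HTSeq gave the deposited counts, whole numbers per Ensembl gene and library that ignore strand and carry no normalization. A table of RPKM values with gene lengths, also deposited by the authors, was used here for symbols, lengths and library names only. Each of its columns, once multiplied by gene length, is proportional to the counts of 1 library, and for 8 columns the name is not that of the count file. Sample labels were those of the count files.

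Counts were tested with edgeR 4.0.16 (limma 3.58.1, R 4.3.3): filterByExpr, TMM normalization, glmQLFit and glmQLFTest, and Benjamini-Hochberg adjustment across the genes tested. Regions were compared within genotype, genotypes within region, and the interaction over all 16 libraries. The test was checked on simulated counts with changes above 2-fold in well-counted genes, for the wild-type region and the cerebellum genotype comparison only. That check does not measure power for small differences or for genes with few counts. TPM was computed from the counts and the deposited lengths. The 8 members, the gene lists and the tests were chosen with earlier results of these data known. Named genes were every member in every comparison, each related family gene, up to 5 listed genes per direction and list with the largest fold change in wild-type mice, listed genes called between genotypes (none), marker genes whose level moved with a member, and the 2 nearest profiles per member. Some genes that this rule takes are counted in their lists but not reported here by name. *Plcb3*, *Plcb4*, *Kcnma1*, *Gad1* and *Aldoc* were named after their values were seen. Alternatives were DESeq2 1.42.0, RLE size factors, library totals, no filter, all libraries in 1 model, mouse as a block, no fold criterion, the table's names, each library left out and, added after the data were seen, only mice whose names agree and another gene length.

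Both regions of a mouse come from the same animal, so replicate numbers pair the samples; across genes, the 2 libraries of a mouse deviated from their groups with correlations of -0.10 to 0.12. Pairs of libraries in a group differed by more than counting error (chi-square over its degrees of freedom, 3.08 to 74.5), and all were kept as separate replicates. Python 3.11.15 with pandas 2.3.3 and numpy 2.4.6 was used for levels and sequences.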

Additional observations from a re-analysis of the deposited data

Results flagged for a closer look

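Levels of the 8 genes and of 5 others (*Pcp4*, *Pvalb*, *Plcb4*, *Aldoc* and *Slc17a6*, taken after their values were seen) were searched in each of the 4 sample groups for a library far from the other 3 by Dixon's criterion. Of the 32 groups of values of the 8 genes 5 met it, and chance alone gives about 1 in 20. The other 5 genes met it 4 times; they were picked for their spread, so no chance rate applies to them.

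*Foxp2* was highest in wild-type cerebellum replicate 3 at 6.04 TPM, against 3.06 to 3.26 TPM in the other 3 libraries. It was also highest in A391T cerebellum replicate 3 at 6.96 TPM, against 3.65 to 3.86 TPM. *Slc17a6* was highest in the same A391T library at 70.7 TPM, with the next at 22.5 TPM. *Pcp4* was lowest in A391T cerebellum replicate 1 at 212 TPM, with the next at 1014 TPM, and *Pvalb* highest there at 4418 TPM, with the next at 1871 TPM. *Calb1* was highest in wild-type cerebellum replicate 2 at 787 TPM, with the next at 726 TPM. *Slc1a6* was lowest in wild-type cerebellum replicate 3 at 429 TPM, with the next at 449 TPM. *Rora* was lowest in A391T cortex replicate 4 at 15.1 TPM, with the next at 19.3 TPM. *Pcp4* was lowest in wild-type cortex replicate 2 at 452 TPM, with the next at 489 TPM.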

How the results depend on the processing

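The counts of called genes moved by at most 1 between the alternatives run: 7 to 8 for the region comparison in wild-type mice and 7 to 8 in A391T mice, also when each library was left out, and 0 in both genotype comparisons and the interaction. With mouse as a replicate block the region comparisons gave 8 and 7 called genes and the interaction 0, and no call changed. *Foxp2* alone moved across the 2-fold criterion. In wild-type mice its log2 fold change was -0.92 with library totals, -0.66 under the names of the RPKM table, -0.72 with only the mice whose names agree, and -1.34 to -0.94 with each library left out. In A391T mice it was called under the table's names (-1.32), with only the mice whose names agree (-1.24), without A391T cerebellum replicate 3 (-1.17) and by the adjusted p-value alone. Library totals shifted the median log2 fold change of all genes between regions to 0.14 in wild-type and 0.16 in A391T mice. Uncalled values between genotypes changed sign under the table's names and with only the mice whose names agree: *Foxp2* in the cerebellum (-0.45 and -0.17), *Rora* in cortex (0.14 and 0.11), *Ppp1r17* in cortex (0.10 and 0.069), and the interactions of *Rora* (-0.15 and -0.085) and *Foxp2* (-0.64 and -0.50). With each library left out, the genotype value spanned 0 for *Slc1a6* in the cerebellum (-0.018 to 0.075), and in cortex for *Calb1* (-0.11 to 0.019), *Itpr1* (-0.051 to 0.13), *Rora* (-0.076 to 0.054) and *Ppp1r17* (-0.24 to 0.23), as did the interactions of *Rora* (-0.021 to 0.12) and *Foxp2* (-0.12 to 0.42). The cause was not tested. With exon lengths of GENCODE M1, 4 of the 8 genes kept their place in the order of levels in wild-type cerebellum. Few counts of *Pcp2* and *Ppp1r17* in cortex limit their fold changes there.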
